A study of Mus musculus with 16 samples.

Results

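The genes described here are 44 genes of the cell cycle and of DNA replication, chosen by name from the 18929 genes of the expression table. They cover the loading and firing of replication origins, the replication fork and its nucleotides, the regulators of entry into S phase and into mitosis, the mitotic kinases and the spindle checkpoint, and the spindle and kinetochore. All 44 were in the table, and all 44 passed the filter that left 12850 genes for testing. B16F10 cells, a mouse melanoma line that grows in C57BL/6 mice, had been injected into the abdomen of female C57BL/6 mice 7 to 8 weeks old, and treatment began at a tumor volume of about 50 mm3 and lasted 9 to 11 days. The Vehicle tumors received corn oil with an IgG2a isotype antibody, the PD1mAb tumors (here anti-PD1) an antibody against the PD-1 receptor, the alpha_KG tumors (here α-KG) α-ketoglutarate at 100 mg/kg, and the aKG_PD1mAb tumors (here α-KG + anti-PD1) both agents. RNA of 4 tumors per group, 16 in all, was sequenced, and levels were deposited as FPKM, fragment counts scaled to transcript length and to the mapped fragments of the library. Whole tumors were measured, so fewer cells of a type and less RNA per cell cannot be told apart, and whether α-KG tumors also received the isotype antibody is not stated.

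A dividing cell loads the Mcm helicase on its origins in G1, fires them in S phase when cyclin E and E2F activity rises, copies its DNA with the clamp Pcna and with nucleotides from ribonucleotide reductase, and then enters mitosis under cyclin B and Cdk1. Mitotic kinases, spindle motors and kinetochore proteins separate the chromosomes, and many of these genes are transcribed mainly in the phase in which they act. In tumors, Mki67 and Top2a are common markers of cycling cells, cyclin D1 (Ccnd1) is a target of growth factor signaling, and Cdkn1a (p21) is an inhibitor of cyclin-dependent kinases that p53 induces.

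Phase-specific transcription of such genes is known to run through short promoter elements, which is why 5 promoters of members with different patterns in these tumors are shown. They are the stretches from 200 bases before to 30 bases after the RefSeq start (GRCm38.p6, the same build as mm10), written 5′ to 3′ on the strand of the gene. Capitals mark the letters TTTGAA of the cell cycle homology region (CHR), the letters CCAAT, and 4 forms of the E2F element (TTTCCCGC, TTTGGCGC, TTTCGCGC and TTTGCCGC), each searched on both strands. In Mcm6 a pair of E2F matches overlap.
Mcm6 (chr1:128359676-128359905, strand −): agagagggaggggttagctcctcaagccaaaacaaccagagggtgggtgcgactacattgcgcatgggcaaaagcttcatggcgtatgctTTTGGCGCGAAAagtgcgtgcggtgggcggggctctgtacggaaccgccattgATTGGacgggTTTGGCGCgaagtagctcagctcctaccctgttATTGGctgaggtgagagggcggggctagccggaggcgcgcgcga
Cdk1 (chr10:69352883-69353112, strand −): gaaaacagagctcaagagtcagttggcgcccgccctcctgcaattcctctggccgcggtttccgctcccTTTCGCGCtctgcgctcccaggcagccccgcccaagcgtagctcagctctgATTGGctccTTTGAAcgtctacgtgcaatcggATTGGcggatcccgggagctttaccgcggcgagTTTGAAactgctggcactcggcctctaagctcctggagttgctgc
Top2a (chr11:99024160-99024389, strand −): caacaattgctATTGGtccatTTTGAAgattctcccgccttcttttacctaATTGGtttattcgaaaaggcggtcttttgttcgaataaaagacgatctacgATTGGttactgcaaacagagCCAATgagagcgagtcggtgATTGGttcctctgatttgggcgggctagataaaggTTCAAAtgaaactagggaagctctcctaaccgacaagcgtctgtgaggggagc
Kif23 (chr9:61946770-61946999, strand −): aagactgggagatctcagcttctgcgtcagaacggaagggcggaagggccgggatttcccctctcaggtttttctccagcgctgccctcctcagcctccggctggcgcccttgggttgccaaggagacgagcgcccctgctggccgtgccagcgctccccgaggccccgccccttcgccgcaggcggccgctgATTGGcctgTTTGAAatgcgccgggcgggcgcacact
Mki67 (chr7:135716350-135716579, strand −): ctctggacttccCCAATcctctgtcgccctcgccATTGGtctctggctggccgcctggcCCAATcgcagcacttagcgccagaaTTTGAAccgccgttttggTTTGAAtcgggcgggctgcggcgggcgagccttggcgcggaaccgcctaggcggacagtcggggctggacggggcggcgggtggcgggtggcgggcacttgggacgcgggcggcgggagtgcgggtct

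Windows of 300 bases were at hand for 35 of the 44 genes. TTTGAA stood in the windows of 16 genes, against 17.9% of all 32851 mouse windows of that length, CCAAT in those of 26 genes against 37.4%, and an E2F form in those of 8 genes against 2.26%. The E2F letters stood in 6 of the 7 origin licensing genes with a window (Mcm3, Mcm5, Mcm6, Mcm7, Cdc6 and Cdt1), beside E2f2 and Cdk1. TTTGAA stood in 6 of 8 genes of the mitotic kinase group and in 6 of 7 of the spindle group, among them Mki67, Top2a, Kif11 and Kif23. A match describes the letters only, and no binding was measured.

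Tyr, Pmel, Mlana and 4 other melanocyte genes were above 0 in every tumor, with sums of 7845 to 10572 FPKM. All leukocyte, macrophage and erythroid markers were above 0 in every tumor as well, so detection alone does not name the tissue. Tumors of a group correlated at 0.967 to 0.993 across genes, which are not independent replicates. The sum of FPKM was 514180 to 527812 when both agents were given and 549740 to 654772 otherwise, hemoglobin genes took 2.09% to 2.23% of it with both agents and 4.23% to 22.2% otherwise, and the median gene was higher with both agents (3.51 to 3.61 on the log2(FPKM + 1) scale, against 3.18 to 3.46). For this reason the number of the 44 genes that passed in each comparison is given in the deposited values. Where it moves, it is also given after centering every tumor on its median gene or rescaling every tumor to the same sum. Counts by role and counts of genes without overlap between groups are for the deposited values only, and they too can move. Vehicle tumors 3 and 4 differed from tumors 1 and 2 of their group. Their summed leukocyte markers were 40 and 40.8 FPKM against 167 and 113, and their mean over the 44 genes was 5.31 and 5.27 against 5.04 and 5.09 on the log2(FPKM + 1) scale. FPKM tables carry no read depth, so the precision of low genes could not be set by counting error.

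On the FPKM scale, which is per length, the highest member over all 16 tumors was the clamp gene Pcna with a mean of 198 FPKM, before Ube2c (125), Mcm2 (113) and Cdkn1a (111). The lowest were the kinetochore genes Cenpf (3.45) and Cenpe (3.30). The highest tumor exceeded the lowest by 1.37-fold for Birc5 and for Ccnd1, by 4.79-fold for Mki67 and by 4.90-fold for Cenpe, with all other members between these values. Vehicle had the highest group mean for 33 of the 44 genes, and α-KG had the lowest for 26 and α-KG + anti-PD1 for 13. On the log2(FPKM + 1) scale the mean over the 44 genes was 5.18 ± 0.133 (SD, n = 4) for vehicle, 4.99 ± 0.0673 for anti-PD1, 4.82 ± 0.121 for α-KG alone and 4.95 ± 0.0332 for the combination. After centering, the combination was the lowest, at 4.75 ± 0.0528 against 4.88 ± 0.0621 in α-KG and 5.29 ± 0.211 in vehicle.

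**Figure D1:**
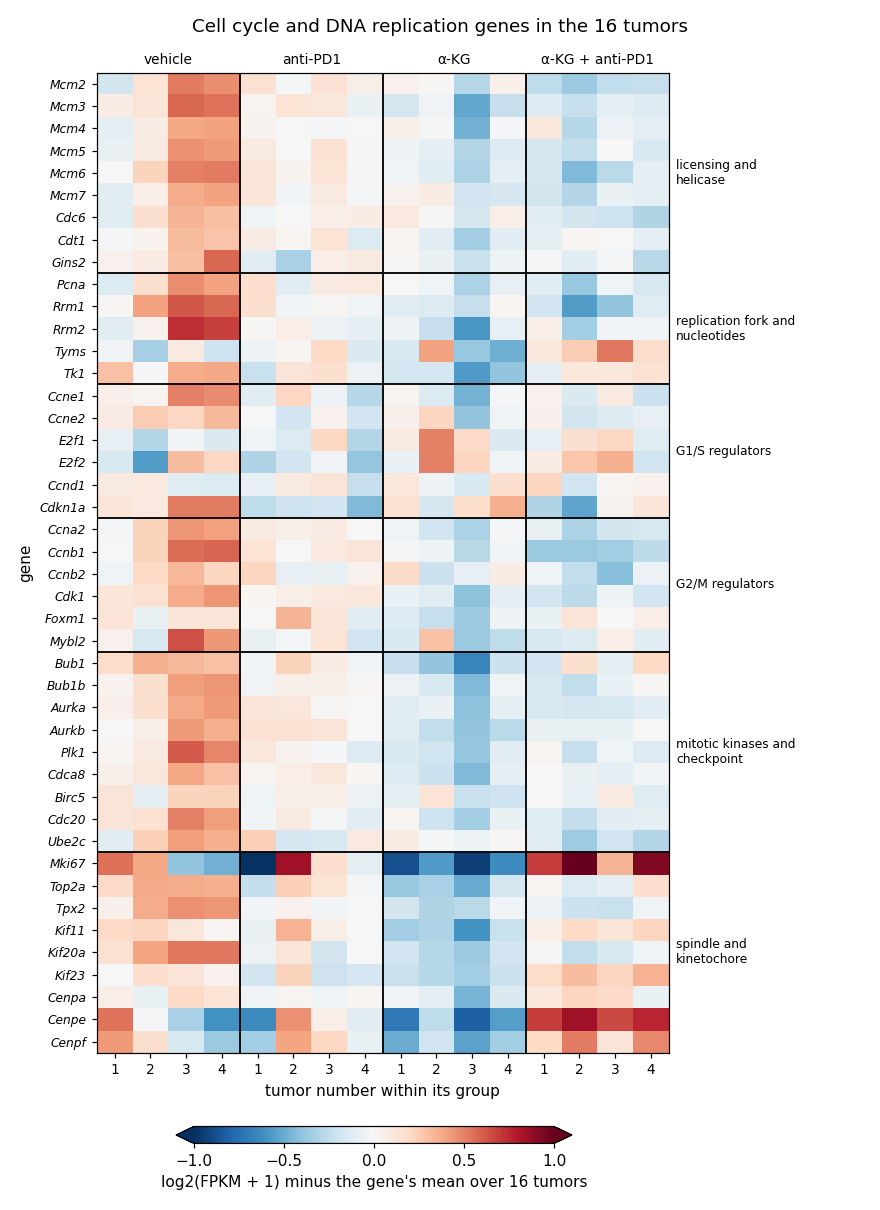
Each row is 1 of the 44 genes, ordered by role, and each column 1 of the 16 tumors. Color gives log2(FPKM + 1) minus the mean of that gene over the 16 tumors. Vehicle tumors 3 and 4 hold the highest value for most genes, α-KG tumor 3 holds the lowest value of 26 genes (4 after centering), and Mki67, Cenpe and Cenpf follow an order of their own.

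**Figure D2:**
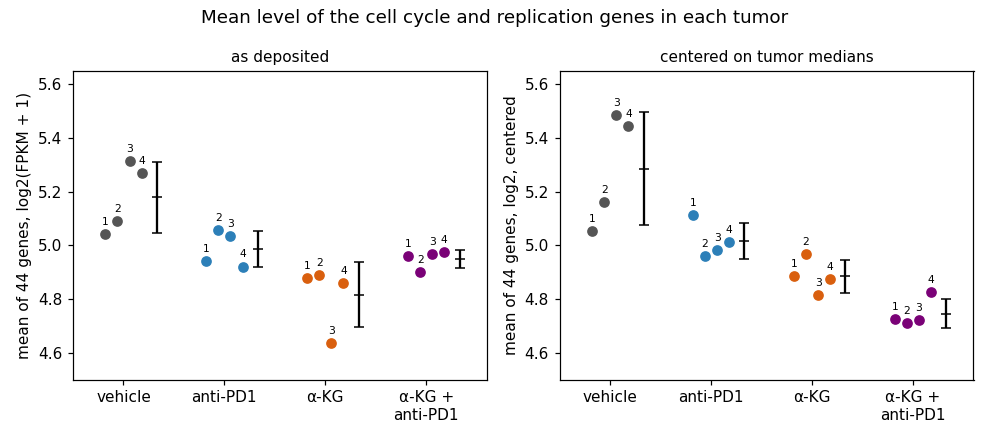
Each point is the mean over the 44 genes in 1 tumor, numbered within its group, with the group mean and SD (n = 4) to its right, as deposited (left) and after centering each tumor on its median gene (right). The vertical axes start above 0. The lowest group mean is that of α-KG in the left panel and that of α-KG + anti-PD1 in the right, where α-KG tumor 3 (4.82) lies within the range of the latter (4.71 to 4.82).

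The first question was what α-KG alone does to these genes. Compared with vehicle, 22 of the 44 genes fell and none rose, by limma on log2(FPKM + 1) with Benjamini-Hochberg adjustment over all 12850 tested genes, where 7.53% of all genes fell and 8.4% rose. By role, 7 of 9 genes of the mitotic kinase and checkpoint group and 5 of 9 of the spindle group fell, against 4 of 9 licensing genes, 3 of 5 fork and nucleotide genes, 3 of 6 G2/M regulators and none of 6 G1/S regulators. The median log2 fold change of the 44 genes was −0.41, and that of all tested genes −0.04. Centering left 26 lower, where 10.7% of all genes were lower and 8.21% higher, and equal sums left 20 lower, where 3.14% and 6.56% were. The 20 genes lower on every scale tried include Mcm3, Mcm5, Mcm6, Rrm1, Cdk1, Aurka, Aurkb, Plk1 and Top2a. All 4 α-KG tumors lay below all 4 vehicle tumors for 21 genes and above them for none, where 10.4% and 10.1% of all genes did so.

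Top2a, the topoisomerase that untangles chromosomes before they part (chr11:98992943-99024189, mm10), measured 58.4, 66.5, 66.2 and 65.4 FPKM in vehicle tumors 1 to 4 and 38.9, 40.5, 35.6 and 45.0 in α-KG tumors. All α-KG tumors lay below all vehicle tumors. The log2 fold change was −0.67 ± 0.10 (SE; limma adjusted p = 0.000306). Kif20a, a kinesin of the midzone of the dividing cell, measured 17.8, 21.2, 23.3 and 23.4 FPKM in vehicle and 13.7, 12.9, 12.1 and 13.8 with α-KG, again without overlap. It fell by 0.66 on the log2 scale (SE 0.09, limma adjusted p = 0.000181), and Bub1, a kinase of the spindle checkpoint, by 0.66 (SE 0.11, limma adjusted p = 0.000706). Exons of Kif20a overlap those of Cdc23 on the other strand over 1271 bases. The part of Cdc23 reads in the Kif20a values was not tested, here or in the other comparisons.

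Of the replication genes, Rrm2, the regulated subunit of ribonucleotide reductase, measured 88.1, 98.5, 160.1 and 154 FPKM in vehicle and 92.1, 81.3, 63.5 and 90.3 with α-KG. The groups overlapped, since vehicle tumor 1 lay below α-KG tumor 1. Rrm2 fell by 0.57 on the log2 scale (SE 0.17, limma adjusted p = 0.0330), a call kept in 9 of 17 alternatives. It was lost when vehicle tumor 3 or 4, or α-KG tumor 2 or 3, was left out, with no filter, with the replicate block, with only the 2 groups fitted, and without vehicle tumors 3 and 4 together (−0.20, limma adjusted p = 0.440). Tk1, the thymidine kinase of the salvage pathway, fell by 0.59 (SE 0.11, limma adjusted p = 0.00225), and the helicase subunits Mcm3, Mcm5 and Mcm6 fell by 0.37 to 0.57. Pcna measured 178, 219, 271 and 259 FPKM in vehicle and 195, 190.4, 157 and 185 with α-KG, with overlap, and its log2 fold change of −0.33 did not pass (limma adjusted p = 0.0744). Pcna did pass as lower with a correction for transcript length (−0.45, limma adjusted p = 0.0210) and with equal sums without hemoglobin genes (−0.39).

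None of the 6 regulators of entry into S phase passed in the deposited values, with 3 at an unadjusted p under 0.05. Ccne1, the cyclin E that starts S phase, measured 20.1, 17.9, 13.95 and 19.6 FPKM with α-KG, all below the lowest vehicle tumor at 20.14. Its log2 fold change of −0.41 did not pass (limma adjusted p = 0.0600), while that after centering, −0.45, did (limma adjusted p = 0.0306), as did those with the length correction and with equal sums without hemoglobin genes. E2f1, the activating transcription factor of S-phase genes, had a mean of 27.5 ± 2.19 FPKM (SD, n = 4) in vehicle and 34.4 ± 6.73 with α-KG, and its log2 fold change of 0.29 did not pass (limma adjusted p = 0.145). Ccnd1, the D-type cyclin that drives G1, measured 50.8, 51.2, 43.8 and 43.4 FPKM in vehicle and 51.4, 46.2, 42.9 and 53.3 with α-KG, and the ranges lay over each other. Cdkn1a measured 117, 116, 156 and 155 FPKM in vehicle and 121, 95.8, 122 and 139.7 with α-KG, with overlap, and its log2 fold change of −0.18 ± 0.15 (SE) did not pass.

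The median fall was smaller without vehicle tumors 3 and 4. Without both of them, an alternative chosen after seeing the data, 5 of the 44 genes were lower with α-KG and none higher, where 1.2% of all tested genes were lower and 3.66% higher, and the median log2 fold change was −0.22. Top2a (−0.63) and Kif20a (−0.53) kept their calls in that fit, and Mcm6, Rrm1, Ccna2, Ccnb1 and Cdc20 lost theirs. With fewer vehicle tumors that fit had less power for every gene, so a lost call alone does not trace to tumors 3 and 4. The leukocyte markers, 6 of 6 higher with α-KG, summed to 477 to 519 FPKM there against 40 to 167 in vehicle, and skeletal muscle markers summed to 1.73 to 2.16 FPKM against 40.3 to 525. Their part in the result was not tested.

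The next question was what the combination does. Compared with vehicle, 25 of the 44 genes fell in α-KG + anti-PD1 tumors and 1 rose, where 10.5% of all tested genes fell and 34.9% rose by the same limma test. By role, 7 of 9 licensing and helicase genes, 2 of 5 fork and nucleotide genes, 4 of 6 G2/M regulators, 7 of 9 mitotic kinase genes, 3 of 9 spindle genes and 2 of 6 G1/S regulators fell. The gene that rose was Cenpe, the kinesin that carries chromosomes at the kinetochore. The median log2 fold change of the 44 genes was −0.34 while that of all tested genes was 0.15, a difference of −0.49.

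The number of genes called depended on the scale. After centering, 37 genes were lower and 1 higher, where 37.4% of all genes were lower and 17.1% higher. After rescaling to the same sum, 5 were lower and 5 higher, where 1.95% and 49% of all genes were, and the 5 genes lower on every scale tried were Mcm6, Rrm1, Ccnb1, Ube2c and Kif20a. When the 12 hemoglobin genes were left out of that sum, 23 were lower and 2 higher, where 8.68% and 35.9% of all genes were. A correction for transcript length, described with Mki67, gave 37 lower and 1 higher, where 35.2% and 18.5% of all genes were.

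Rrm1, the large subunit of ribonucleotide reductase (chr7:102441695-102469771, mm10), had the largest fall. It measured 57.0, 75.1, 87.7 and 85.0 FPKM in vehicle tumors and 49.6, 38.2, 42.8 and 51.9 in α-KG + anti-PD1 tumors. The groups did not overlap, as for 17 genes that lay lower in the combination and 3 that lay higher, where 6.55% and 28.2% of all tested genes did so. The log2 fold change was −0.72 ± 0.12 (SE; limma adjusted p = 0.000590).

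Ccnb1, the cyclin that brings Cdk1 into mitosis (chr13:100778650-100786570, mm10), measured 40.7, 47.8, 60.6 and 61.4 FPKM in vehicle and 31.4, 31.3, 31.9 and 33.9 in the combination. The 4 combination tumors lay close together and below every other tumor of the series except α-KG tumor 3. Ccnb1 fell by 0.68 on the log2 scale (SE 0.11, limma adjusted p = 0.000476). Ccna2, the cyclin of S phase and G2, measured 48.2, 57.0, 66.4 and 65.2 FPKM in vehicle and 46.2, 38.8, 42.9 and 43.6 in the combination, without overlap, and fell by 0.45 (SE 0.10, limma adjusted p = 0.00208). The Ccna2 call was lost with equal sums and without vehicle tumors 3 and 4 together.

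Mcm6 and Mcm2 are subunits of the replicative helicase. Mcm6 (chr1:128331590-128359664, mm10) measured 71.0, 83.3, 101 and 102 FPKM in vehicle and 63.3, 52.3, 58.9 and 66.7 in the combination, without overlap, and fell by 0.55 on the log2 scale (SE 0.11, limma adjusted p = 0.00126). Mcm2 measured 98.2, 123, 161 and 154 FPKM in vehicle and 93.2, 86.6, 94.2 and 94.7 in the combination. It fell by 0.51 (SE 0.12, limma adjusted p = 0.00448), a call lost with equal sums and without vehicle tumors 3 and 4 together. Pcna measured 182, 150.3, 190.4 and 175 FPKM in the combination, overlapping vehicle tumor 1, and fell by 0.39 (SE 0.12, limma adjusted p = 0.0163). The Pcna call was lost with equal sums, without vehicle tumor 3 or 4 or both, and without combination tumor 2.

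In the mitotic kinase group, Ube2c and Cdc20 belong to the machinery that marks cyclin B for destruction. Ube2c measured 114, 146, 166 and 159 FPKM in vehicle and 115, 96.4, 108 and 101 in the combination, with vehicle tumor 1 inside the range of the combination. It fell by 0.46 (SE 0.11, limma adjusted p = 0.00433), a call lost without vehicle tumors 3 and 4 together. Exons of Ube2c overlap those of the muscle gene Tnnc2 on the other strand, and Tnnc2 measured 8.29 to 102 FPKM in vehicle and 0.15 to 13.1 in the combination, so the part of Tnnc2 reads in the Ube2c values was not tested. Cdc20 measured 32.8, 33.4, 42.9 and 40.4 FPKM in vehicle and 27.5, 25.3, 27.5 and 28.0 in the combination, without overlap, and fell by 0.44 (SE 0.10, limma adjusted p = 0.00211). The Cdc20 call was lost with equal sums and without vehicle tumors 3 and 4 together.

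Cdkn1a (chr17:29090976-29100727, mm10) was the highest of the G1/S regulators and measured 87.6, 74.7, 111 and 118 FPKM in the combination, so that combination tumor 4 lay just above vehicle tumors 1 and 2. It fell by 0.48 (SE 0.15, limma adjusted p = 0.0163). That call was lost with equal sums, without vehicle tumor 3 or 4 or both, and without combination tumor 2. Ccne1 measured 20.4, 20.1, 28.3 and 27.7 FPKM in vehicle and 20.3, 17.7, 21.03 and 16.9 in the combination, with overlap, and its log2 fold change of −0.32 did not pass (limma adjusted p = 0.0753). Ccnd1 measured 55.7, 41.8, 48.4 and 49.3 FPKM, spanning the vehicle values, with a log2 fold change of 0.04 ± 0.10 (SE). Rrm2 (−0.43, limma adjusted p = 0.0534) and the transcription factors Foxm1 (−0.04) and Mybl2 (−0.32) did not pass either. After centering, Ccne1 (−0.63), Ccnd1 (−0.27), Rrm2 (−0.74), Foxm1 (−0.35) and Mybl2 (−0.63) all passed as lower, where 37.4% of all genes were. They also did with the length correction, where 35.2% of all genes were lower, and none of them passed with equal sums.

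Leaving out vehicle tumor 3 lowered the count to 16 genes lower, and leaving out vehicle tumor 1 raised the genes higher to 3. No share of all tested genes is given for these fits, so a move shared by all genes is not set apart. Leaving out both vehicle tumors 3 and 4 left 5 lower, none higher (1.74% and 12.4% of all tested genes) and a median of −0.15. Mcm6, Rrm1, Ccnb1 and Kif20a kept their calls in that last fit, which had fewer vehicle tumors and so less power for every gene. All 7 T-cell markers were higher in the combination than in vehicle, with sums of 24.9 to 208 FPKM against 2.60 to 10.8, all 8 erythroid markers were lower, and 2 of 7 melanocyte markers were lower, with sums of 7845 to 9646 FPKM against 8288 to 10090 (vehicle). Their part in the result was not tested.

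**Figure D3:**
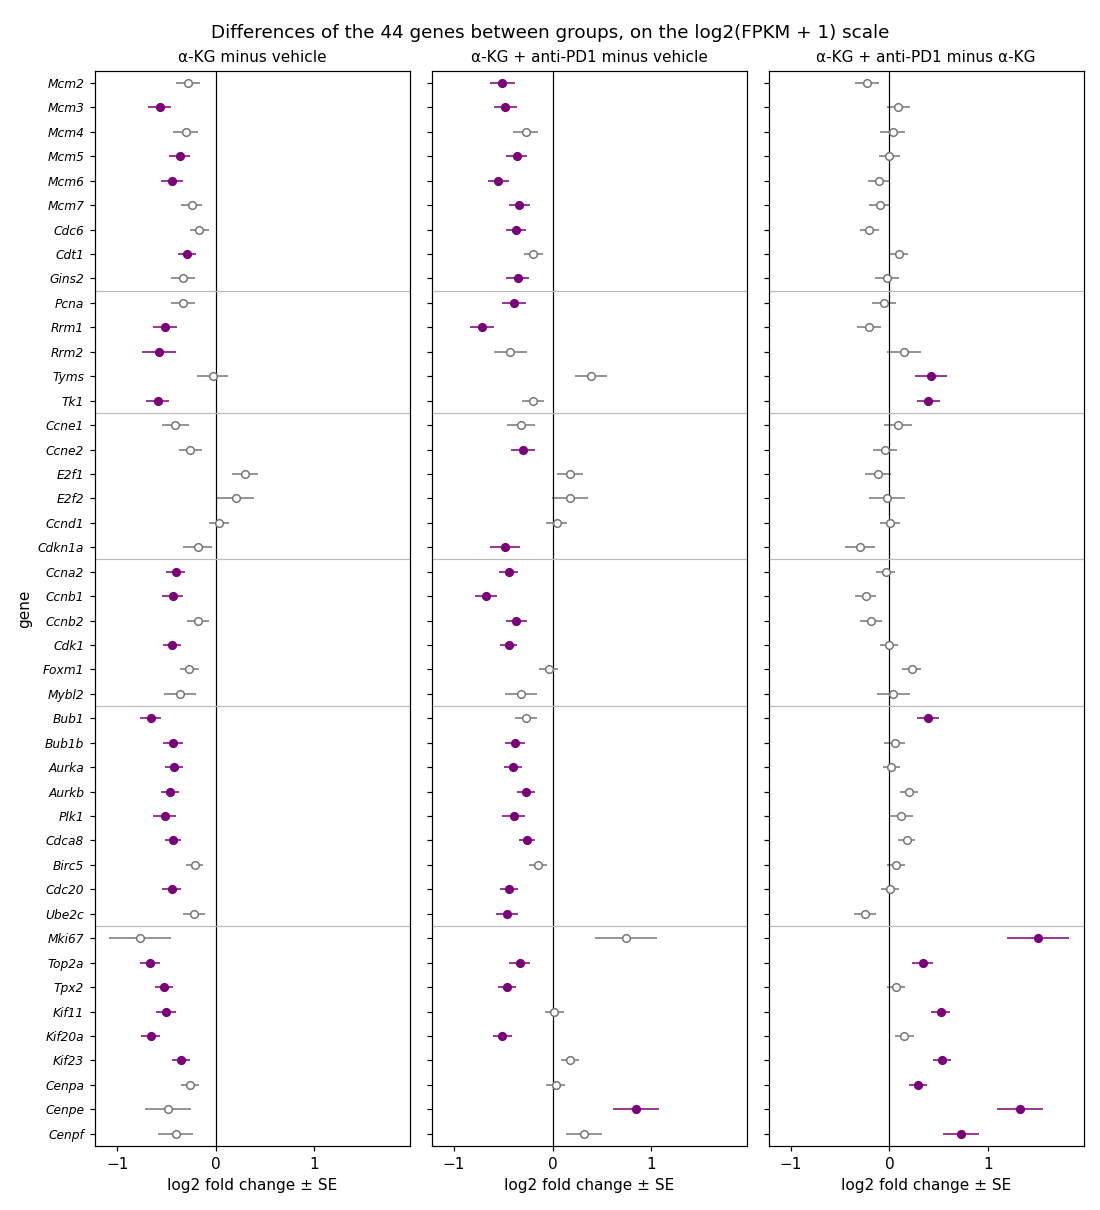
Log2 fold change with its SE for each of the 44 genes, grouped by role, in 3 comparisons of 4 tumors against 4. Filled points passed limma at an adjusted p under 0.05. Filled points number 22, 26 and 10 from left to right, and the 9 spindle genes lie below 0 on the left and above 0 on the right, where centering would place 2 of them below 0.

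The comparisons of α-KG and of the combination with vehicle share the same 4 vehicle tumors, and their values stand side by side here without a test. Both called 16 genes lower, among them Cdk1, Aurka, Aurkb, Plk1, Mcm3, Mcm5 and Mcm6. A further 6 (Cdt1, Rrm2, Tk1, Bub1, Kif11 and Kif23) passed with α-KG alone, 9 (Mcm2, Mcm7, Cdc6, Gins2, Pcna, Ccne2, Cdkn1a, Ccnb2 and Ube2c) passed as lower in the combination alone, and 12 passed in neither. These counts are for the deposited values, and no share of all tested genes is given for them. After centering, Cdt1, Rrm2, Tk1, Bub1 and Kif11 were lower in the combination too, where 37.4% of all genes were lower. Plk1, the kinase that drives mitotic entry, measured a log2 fold change of −0.52 ± 0.12 (SE) with α-KG and −0.40 ± 0.12 with both agents. Kif11, the motor that separates the spindle poles, measured −0.51 ± 0.10 with α-KG and 0.02 ± 0.10 with both. After centering Kif11 had −0.54 with α-KG and −0.30 with both, and each passed.

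With anti-PD1 alone, 1 of the 44 genes fell and none rose, where 0.28% of all tested genes fell and 0.467% rose. The gene was Kif20a, with 15.3, 17.4, 13.9 and 15.9 FPKM, all below the lowest vehicle tumor. It fell by 0.43 (SE 0.09, limma adjusted p = 0.0486), and the call was lost when any 1 of the tumors other than vehicle tumor 1 was left out. At an unadjusted p under 0.05 there were 17 genes, the median log2 fold change was −0.19, and 39 of 44 values were below 0. The medians of all tested genes, taken in bins of transcript length, lay between −0.01 and 0.06. Shares of all tested genes at that unadjusted p or below 0 are not given, so these counts are a description. For 6 genes all anti-PD1 tumors lay below all vehicle tumors and for none above, where 3.61% and 5% of all genes did so. Centering left the 1 call (0.521% of all genes lower and 1.04% higher), equal sums left none (0.109% and 0.117%), also without hemoglobin genes (0.202% and 0.56%), and the length correction gave 3 lower, Kif20a, Top2a and Cdkn1a (0.853% and 1.16%). Leaving out vehicle tumor 1 gave 10 genes lower, and leaving out any other tumor gave none, with no share of all tested genes given for these fits. Without vehicle tumors 3 and 4 together limma called none of the 44 and 0% of all tested genes in either direction. Leukocyte markers summed to 172 to 334 FPKM with anti-PD1 against 40 to 167 in vehicle, and skeletal muscle markers to 0.96 to 2 FPKM against 40.3 to 525, both without overlap, and their part in the result was not tested. Cdkn1a measured 90.4, 93.4, 94.6 and 79.4 FPKM, below every vehicle tumor, and its log2 fold change of −0.59 ± 0.15 (SE) did not pass (limma adjusted p = 0.0679).

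Adding α-KG to anti-PD1 changed few of these genes in the deposited values. Against anti-PD1 alone 1 of the 44 fell and 2 rose in the combination, where 1.31% of all tested genes fell and 14.2% rose. The gene that fell was Ccnb1, which measured 45.0, 40.9, 43.8 and 44.6 FPKM with anti-PD1, above all combination tumors (−0.43 ± 0.11 SE, limma adjusted p = 0.0223). Cenpe rose by 0.80 ± 0.23 (limma adjusted p = 0.0357) and Kif23, a motor of cell abscission, by 0.35 ± 0.09 (limma adjusted p = 0.0252). The median log2 fold change was −0.07, and it was −0.31 after centering, with 21 genes lower and none higher (15.3% and 6.24% of all genes), and 0.11 after rescaling to the same sum, with none lower and 5 higher (0.28% and 32.7%). Relative to all tested genes the median in the deposited values was −0.20. The length correction gave 20 lower and 1 higher (12.9% and 7.03%). For 12 genes the combination lay wholly below anti-PD1 and for 1 wholly above, where 2.99% and 13.6% of all genes did so. Of the calls of Ccnb1, Cenpe and Kif23 none held on every scale, and all 3 were lost without anti-PD1 tumor 1, without anti-PD1 tumor 4 or without combination tumor 3. All 7 T-cell markers were higher in the combination than with anti-PD1, with sums of 24.9 to 208 FPKM against 9.44 to 31.9, and their part in the result was not tested.

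The last question was what anti-PD1 adds within tumors that received α-KG. Against α-KG alone, 10 of the 44 genes rose in the combination and none fell, where 31.8% of all tested genes rose and 6.47% fell, so the share of the members was not above that of all genes. The genes were Mki67, Cenpe, Cenpf, Kif11, Kif23, Top2a, Cenpa, Bub1, Tk1 and Tyms, 7 of them from the spindle and kinetochore group of 9. No licensing gene, no G1/S and no G2/M regulator passed. After centering, the 5 genes Mki67, Cenpe, Cenpf, Kif11 and Kif23 were still higher while 13 others were lower, where 13.7% and 24.3% of all genes were, and the median of the 44 turned from 0.05 to −0.23. After rescaling to the same sum 18 were higher (53.1% of all genes, with 2.86% lower), with a median of 0.26. The length correction gave 9 lower and 5 higher, where 18.1% and 16.3% of all genes were. The groups did not overlap for 10 genes higher and 1 lower (Ube2c) in the combination, where 29.7% and 5.68% of all genes did so. The same 5 genes were higher on every scale tried.

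Mki67, the gene of the Ki-67 protein that coats mitotic chromosomes (chr7:135689784-135716361, mm10), had the largest change. It measured 5.54, 7.12, 5.26 and 6.76 FPKM in α-KG tumors and 18.5, 24.2, 14.2 and 21.8 in the combination, with no overlap. Vehicle tumors measured 16.5, 14.7, 8.15 and 7.61 FPKM and anti-PD1 tumors 5.04, 20.6, 12.4 and 10.2, so that every vehicle tumor lay above every α-KG tumor, and both groups overlapped the combination. Between α-KG and vehicle the log2 fold change was −0.77 ± 0.31 (SE), the lowest value of the 44 genes, and did not pass (limma adjusted p = 0.111). With the length correction described below, Mki67 passed as lower with α-KG (−0.75, limma adjusted p = 0.0400). The log2 fold change between the combination and α-KG was 1.51 ± 0.31 (SE; limma adjusted p = 0.00243), and that between the combination and vehicle, 0.74 ± 0.31, did not pass (limma adjusted p = 0.0649). With equal sums the latter passed (0.95, limma adjusted p = 0.0300), where 49% of all genes were higher.

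Cenpe (chr3:135212537-135273611, mm10) measured 1.43, 2.34, 1.26 and 1.71 FPKM with α-KG and 5.42, 6.18, 5.29 and 5.76 in the combination. The 4 combination tumors were the highest of the 16, above vehicle (4.79, 2.95, 2.17 and 1.61) and anti-PD1 (1.56, 4.47, 3.17 and 2.67). It was 1.33 ± 0.23 higher on the log2 scale than with α-KG (limma adjusted p = 0.00105) and 0.84 ± 0.23 higher than in vehicle (limma adjusted p = 0.00932), the latter not without vehicle tumors 3 and 4 (0.48). Kif23 (chr9:61915905-61946774, mm10) measured 11.8, 11.2, 10.7 and 11.9 FPKM with α-KG and 15.9, 17.5, 16.3 and 18.0 in the combination, with no overlap, and was higher by 0.53 ± 0.09 (limma adjusted p = 0.000918).

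Top2a measured 51.5, 46.3, 47.7 and 57.5 FPKM in the combination, above every α-KG tumor and below every vehicle tumor. Its log2 fold change against α-KG of 0.34 ± 0.10 passed (limma adjusted p = 0.0178) in the deposited values and was 0.06 after centering (limma adjusted p = 0.617). Cenpa, the histone variant that marks centromeres, measured 55.0, 52.6, 40.2 and 50.5 FPKM with α-KG and 60.2, 64.9, 63.8 and 53.3 in the combination, with overlap, and its change of 0.29 ± 0.09 (limma adjusted p = 0.0223) was 0.02 after centering. In the deposited values α-KG tumor 3 held the lowest value of 26 of the 44 genes, and after centering that of 4. Without that tumor, 6 genes were higher and the median was −0.03. The share of all tested genes in that fit is not given.

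**Figure D4:**
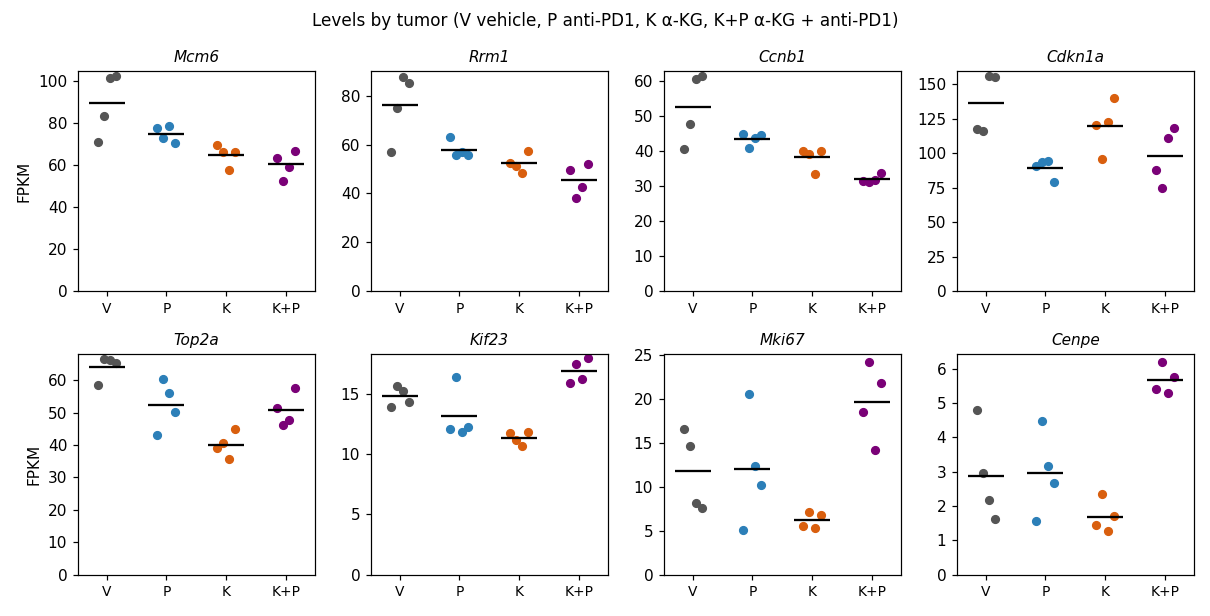
FPKM of 8 genes in each tumor, points, with the group mean as a line, and axes that start at 0. Mcm6, Rrm1 and Ccnb1 step down to the combination, Top2a is lowest with α-KG and between α-KG and vehicle in the combination, and Kif23, Mki67 and Cenpe have their highest group mean in the combination.

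Whether anti-PD1 acted differently with α-KG present was tested by the interaction, the change from α-KG to the combination minus the change from vehicle to anti-PD1. It passed above 0 for 8 of the 44 genes and below 0 for none, where 7.99% of all tested genes passed above and 3.13% below. The 8 were Mki67 (1.55 ± 0.44 SE, limma adjusted p = 0.0373), Cenpe (1.28 ± 0.33, limma adjusted p = 0.0244), Kif23 (0.70 ± 0.13, limma adjusted p = 0.00429), Tk1 (0.65), Top2a (0.63), Bub1 (0.62), Kif20a (0.58) and Kif11 (0.57). Mki67, Cenpe, Kif23 and Kif11 held on every scale tried, and after centering they were the only ones, where 3.03% of all genes passed above 0 and 4.93% below. With equal sums 15 genes passed above 0, where 16.4% of all genes passed above and 2.21% below. The Mki67 call was lost on leaving out any of 8 single tumors, with a largest limma adjusted p of 0.0804 over all alternatives, and the Cenpe call on leaving out anti-PD1 tumor 4 or α-KG tumor 3. Without anti-PD1 tumor 4 there were 5 calls, with no share of all tested genes given for that fit.

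Mki67, Cenpe and Cenpf also shared something that the choice of genes had not used. They are the 3 members whose longest transcript exceeds 6500 bases, at 10061, 7910 and 11130 bases, and within each of the 4 groups the tumors stood in the same order for all 3 of them. In vehicle, tumors 3 and 4 were the lowest for these 3 genes, while tumor 3 held the highest value of 20 other members and tumor 4 that of 11. Among the 1284 tested genes over 6500 bases the median log2 fold change between the combination and α-KG was 0.25, and among the 787 genes up to 1000 bases it was −0.04. The difference in level between long genes and those up to 2000 bases, members left out, was 0.06 to 0.23 in the combination tumors and −0.14 to 0.07 in the α-KG tumors on the log2 scale, and it followed the tumor order of Mki67 in vehicle and anti-PD1 tumors but not in α-KG or combination tumors. After a correction for transcript length within each tumor, chosen after seeing the data, the change was 1.21 for Mki67, 1.04 for Cenpe and 0.42 for Cenpf, each still past the limma threshold.

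**Figure D5:**
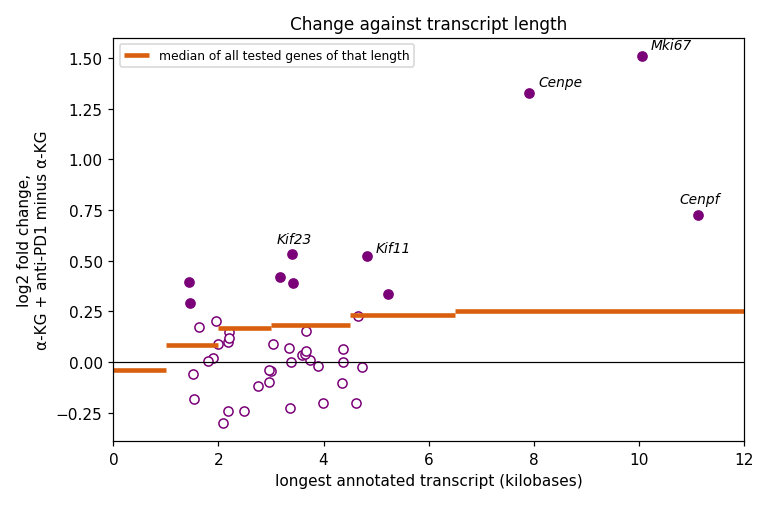
Log2 fold change between α-KG + anti-PD1 and α-KG of each of the 44 genes, points, filled where limma passed, against the length of the longest transcript in kilobases. Bars give the median over all tested genes of that length, which rises from −0.04 to 0.25, and Mki67, Cenpe and Cenpf lie above the bar of their length.

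All 7 T-cell markers were higher in the combination than with α-KG, with sums of 24.9 to 208 FPKM against 6.99 to 37.8. Within the combination the 2 tumors with the most T-cell marker RNA, tumors 1 and 3 (208 and 171 FPKM), had the least Mki67 (18.5 and 14.2), and tumors 2 and 4 (59.9 and 24.9 FPKM) the most (24.2 and 21.8). Tumors 1 and 3 also had the smaller difference between long and short genes described above (0.09 and 0.06), and tumors 2 and 4 the larger (0.15 and 0.23). Of 6 general leukocyte markers none passed by limma and 1 had an unadjusted p under 0.05. The part of T cells in the Mki67 values was not tested.

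Genes of the same pathways beyond the 44 were read from 3 further lists. Of 25 other replication and repair genes, 14 fell with α-KG and 1 rose (Brca1), 5 fell and 2 rose in the combination against vehicle, and 12 rose and none fell in the combination against α-KG. Of all tested genes, 7.53% fell and 8.4% rose with α-KG, 10.5% fell and 34.9% rose in the combination against vehicle, and 6.47% fell and 31.8% rose against α-KG. Brca1, a factor of homologous recombination, had a mean of 33.3 ± 8.16 FPKM (SD, n = 4) in vehicle, 72.3 ± 12.9 with anti-PD1, 51.8 ± 5.43 with α-KG and 74.8 ± 10.6 with both. It was 1.16 higher on the log2 scale in the combination than in vehicle (SE 0.16, limma adjusted p = 0.000417). Cdc7, the kinase that fires origins, had means of 4.33, 4.85, 3.44 and 9.91 FPKM in the same order, and was 1.07 higher than in vehicle (SE 0.28, limma adjusted p = 0.00714).

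Of 35 other mitosis genes, 24 fell and none rose with α-KG, 11 fell and 4 rose in the combination against vehicle, and 21 rose and none fell against α-KG. The interaction passed above 0 for 17 of them, where it did so for 7.99% of all tested genes, and the other shares of all genes are those just given. Smc4, a condensin subunit, had means of 15.9 FPKM in vehicle, 13.5 with α-KG and 29.6 in the combination, where all tumors lay above all vehicle tumors, and rose by 0.90 against vehicle (SE 0.20, limma adjusted p = 0.00239). Pkmyt1, the kinase that holds Cdk1 inactive, had means of 13.8, 10.2 and 26.8 FPKM and rose by 0.90 (SE 0.19, limma adjusted p = 0.00213). Of the 23 other cyclins, kinases, inhibitors and pocket proteins 21 were tested: 2 fell with α-KG, 1 fell and 8 rose in the combination against vehicle, and 10 rose against α-KG, where 34.9% of all tested genes rose in the former and 31.8% in the latter. Cdk6, a partner of D cyclins, rose from 1.80 ± 0.211 to 3.70 ± 1.04 FPKM (SD, n = 4; log2 fold change 0.73, limma adjusted p = 0.00124) and Rbl2, a pocket protein, from 8.30 ± 1.12 to 13.0 ± 3.14 (0.58, limma adjusted p = 0.00370). After centering, the 3 lists gave 21, 26 and 6 genes lower and 2, 2 and 3 higher in the combination against vehicle, where 37.4% of all genes were lower and 17.1% higher. Against α-KG they gave 2, 5 and 3 lower and 1, 7 and 4 higher, where 24.3% and 13.7% of all genes were.

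The promoter letters were set beside the calls. In the combination against α-KG, 6 of the 16 genes with TTTGAA and 4 of the 19 windowed genes without it were higher, with median log2 fold changes of 0.09 and 0.04. None of the 8 genes with an E2F form was higher, with a median of −0.01, and 10 of the 27 without one were, with a median of 0.09, where 31.8% of all tested genes were higher. These counts hold for the deposited values: with equal sums 1 of the 8 (Cdt1) and 13 of the 27 were higher, and after centering 4 of the 8 (Mcm6, Mcm7, Cdc6 and Cdk1) and 7 of the 27 were lower. With α-KG against vehicle, 9 of 16 genes with TTTGAA and 9 of 19 without it were lower. The groups of genes share roles as well as letters, and these counts are a description.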

How the data were processed

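The study sequenced poly(A)-selected, dUTP second-strand RNA libraries of 16 B16F10 tumors on a DNBSEQ platform. Per the labels, the submitters' processing notes name HISAT, Bowtie2 and the mm10 build. The authors deposited 1 table of FPKM values per gene and tumor, and the program, annotation, strand setting and filters behind it are not given in the sources used here. Of the 44 genes, 11 overlap exons of another gene on the opposite strand and 1 (Foxm1) on the same strand in GENCODE M21. The depth per tumor is unknown, and no counting interval is given.

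The 44 genes and all lists were chosen with earlier results of these data known. Values were transformed to log2(FPKM + 1), genes with at least 0.5 FPKM in at least 4 tumors were kept (12850), and all 16 tumors were fitted by group with limma 3.58.1 (eBayes with trend, R 4.3.3). Fold changes therefore understate those of low genes. Contrasts passed at a Benjamini-Hochberg adjusted p under 0.05 over all tested genes, and this adjusted p is meant throughout. SE is the moderated standard error. p-values measure the spread between 4 tumors of separate mice per group. Tests were checked on simulated data. Named genes were Mki67, Top2a, Pcna, Ccnd1 and Cdkn1a, then per role the gene of highest level and the 2 of largest change in the combination against vehicle, genes called against the sign of the median, all calls where there were 5 or fewer, and 2 per further list. Kif11, Bub1, Tk1, Plk1, E2f1, Cenpf and others named beside them were chosen after their values were seen. Transcript lengths (98.6% of tested genes) are the longest in the basic GENCODE M21 set. Figures were drawn with matplotlib 3.10.9.

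Alternatives were centering on tumor medians, rescaling to the same sum with and without the 12 hemoglobin genes, a pseudocount of 0.1, no filter, fits of only the 2 groups compared, the replicate number as a block, and leaving out each tumor. A length correction (loess, span 0.5) and leaving out vehicle tumors 3 and 4 together were added after seeing the data.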

Additional observations from a re-analysis of the deposited data

Results flagged for a closer look

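In 7 of 80 checked sets of 4 tumors, over 20 measures, 1 tumor lay far from the other 3, where chance flags about 1 in 20 such sets. The mean over the 44 genes was 4.64 on the log2(FPKM + 1) scale in α-KG tumor 3, with the next α-KG tumor at 4.86. After centering, α-KG + anti-PD1 tumor 4 was the highest of its group at 4.82, with the next at 4.73. Top2a was lowest in vehicle tumor 1 at 58.4 FPKM, next to 65.4, and Mcm2 was lowest in α-KG tumor 3 at 91.5, next to 113. Ccnb1 was lowest in α-KG tumor 3 at 33.4 FPKM, next to 39.3. Cdc20 was lowest in α-KG + anti-PD1 tumor 2 at 25.3 FPKM, next to 27.5, and Kif23 was highest in anti-PD1 tumor 2 at 16.4, next to 12.3.

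The change from α-KG to the combination differed from the change from vehicle to anti-PD1 by the interaction test of limma for 8 of the 44 genes. The log2 difference was 1.55 for Mki67, 1.28 for Cenpe, 0.70 for Kif23, 0.65 for Tk1, 0.63 for Top2a, 0.62 for Bub1, 0.58 for Kif20a and 0.57 for Kif11. With anti-PD1 alone Mki67 had a log2 fold change of −0.04 and Kif11 of −0.05 against vehicle, and against α-KG the combination had 1.51 and 0.52.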

How the results depend on the processing

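Each comparison has 4 tumors per group and no known depth, and the sum and median of FPKM differ between groups, and counts of genes called depend on the scale. Centering moved the median of the 44 genes to −0.65 for the combination against vehicle, gave 21 lower, 0 higher and a median of −0.31 against anti-PD1, 13 lower, 5 higher and a median of −0.23 (reversed) against α-KG, and 4 interaction calls. Rescaling to the same sum gave 5 lower, 5 higher and −0.12 for the combination against vehicle, 0 lower for anti-PD1 against vehicle, 0 lower, 5 higher and a median of 0.11 (reversed) for the combination against anti-PD1, 18 higher and 0.26 against α-KG, and 15 interaction calls. Without hemoglobin in that sum there were 2 higher in the combination and 0 lower with anti-PD1 against vehicle. A pseudocount of 0.1 gave 2 lower with anti-PD1 against vehicle and 1 higher in the combination against anti-PD1, and no filter gave 0 and 1. Fitting only the 2 groups gave 3 higher for the combination and 0 lower for anti-PD1 against vehicle, 2 lower and 0 higher for the combination against anti-PD1, and 2 lower against α-KG. The length correction gave a median of −0.63 for the combination against vehicle, 3 lower with anti-PD1, 20 lower, 1 higher and −0.28 for the combination against anti-PD1, and 9 lower, 5 higher and −0.18 (reversed) against α-KG. Without vehicle tumors 3 and 4 there were 5 lower, 0 higher and −0.15 for the combination, 0 lower and −0.0496 for anti-PD1, and 5 lower and −0.22 for α-KG. Shares of all tested genes are not given for the pseudocount, no-filter and 2-group fits, so those counts are not set against moves of all genes. The causes were not tested.

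Leaving out each tumor in turn gave 16 to 30 lower and 1 to 3 higher for the combination against vehicle, 0 to 10 lower for anti-PD1, and 18 to 30 for α-KG. It gave 0 to 3 lower and 0 to 3 higher for the combination against anti-PD1, 6 to 10 higher and a median of −0.0273 to 0.0823 against α-KG, and 5 to 10 interaction calls. Shares of all tested genes are not given for the fits without 1 tumor, so these ranges are not set against moves of all genes. Of 24 same-number pairs of tumors, 9 had a correlation of deviations above 0.1, with a range of −0.642 to 0.411. Tumors of different numbers were not compared, so this does not settle whether the replicate numbers pair the tumors. With the replicate block 24 genes were lower in the combination and 20 with α-KG against vehicle, 0 with anti-PD1, and 8 interaction calls were made. For the replicate block, too, no share of all tested genes is given.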

Other observations

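Of 18 genes of the p53 pathway and its targets, a list chosen with results of these data known, 17 were tested. Against vehicle 5 rose and none fell with α-KG (8.4% of all tested genes rose), 8 rose and none fell in the combination (34.9%, and 7 against 2 after centering), and none passed with anti-PD1 by limma, with 2 at an unadjusted p under 0.05. Btg2, an antiproliferative gene that p53 induces, had a mean of 1.68 ± 0.427 FPKM (SD, n = 4) in vehicle, 2.49 ± 0.795 with anti-PD1, 16.5 ± 4.34 with α-KG and 8.07 ± 4.93 with both agents. It rose by 2.69 on the log2 scale with α-KG (SE 0.31, limma adjusted p = 1.78e-05) and by 1.61 in the combination (SE 0.31, limma adjusted p = 0.00103), and was lower in the combination than with α-KG by 1.08 (SE 0.31, limma adjusted p = 0.0123). Gdf15, a secreted stress factor, rose by 1.04 with α-KG (SE 0.30, limma adjusted p = 0.0293) and by 1.46 in the combination (SE 0.30, limma adjusted p = 0.00174). Cdkn1a, a p53 target among the 44 genes, fell by 0.48 in the combination against vehicle, and had −0.18 with α-KG, which did not pass. Trp53 itself had 0.09 in the combination and did not pass.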
